A study of Rattus norvegicus with 4 samples.

Results

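The genes described here are neuropeptide genes that neurons of the cerebral cortex can express: Sst, Npy, Vip, Cck, Tac1, Penk, Pdyn, Crh, Adcyap1 and Cort. Members were probe sets annotated to exactly 1 of these 10 genes, with the brightest one kept per gene, and 9 of the 10 were measured among 17245 named genes. Cort, which encodes the somatostatin relative cortistatin, was annotated only to a probe set shared with Pgd, so no value is given for it. Each of the 9 measured genes had a single probe set. Total RNA was profiled on 4 one-colour whole-transcript arrays of cultured cortical neurons from Sprague Dawley rat embryos at embryonic day 18. All cultures had been infected with pLL3.7 lentivirus, which delivers a short hairpin RNA (shRNA). In 2 arrays it carried a control shRNA and in 2 it carried PHF6shRNA-2, directed at PHF6, a chromatin-associated zinc-finger protein whose gene is mutated in an X-linked intellectual disability syndrome. The labels call the control arrays wild type and the others PHF6 knockdown, though their source name reads KO. RNA was taken 5 days after infection, and the comparison asks which transcripts differ when PHF6 is targeted.

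Only 1 hairpin against PHF6 was used, so effects of PHF6 loss and other effects of that hairpin cannot be told apart. The arrays are numbered as biological duplicates 1 and 2 in each group, and the labels name no separate cultures or animals behind them. The p-values therefore measure only the spread between these arrays. With 2 arrays a group an exact two-sided test of a single value cannot go below p = 0.333, so differences were tested with limma across all genes. A background level was taken on each array from 206 olfactory and vomeronasal receptor genes, which cortical neurons are not known for expressing, as the 95th percentile of their signals. It lay between 32.5 and 41.2 intensity units and was higher in the duplicates numbered 1. Phf6 itself read 31.3 to 34.4 and exceeded that level on 1 of the 4 arrays, so its probe set does not check the knockdown.

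Neuropeptides are cut from larger precursor proteins in the secretory pathway, packed into dense-core vesicles and released to act on G protein-coupled receptors. In the cortex Sst, Npy and Vip are best known as products of GABAergic interneurons, while Cck, Penk and Adcyap1 are also made by excitatory neurons. Many neuropeptide genes respond to cyclic AMP and neuronal activity through CREB, a transcription factor that binds the palindrome TGACGTCA, the cyclic AMP response element. The somatostatin gene is the classic gene in which this element was described.

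The stretches that hold this element or part of it are shown first. RefSeq promoter windows of the GRCr8 assembly, each from 250 bases before to 50 bases after the annotated start, were at hand for 6 of the 9 measured genes. Each line gives 30 bases, 5′ to 3′ on the gene's strand, and capitals mark the longest match found among TGACGTCA, TGACGTC and TGACG on either strand (each shorter motif lies within the longer one).
Sst (chr11:90461537-90461566, plus strand): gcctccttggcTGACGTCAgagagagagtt
Vip (chr1:44470372-44470401, plus strand): gatcaccactgTGACGTCtttcgaggagcc
Tac1 (chr4:36645365-36645394, plus strand): tccctaaaattgCGTCAtttcgaacccaat
Sst held the full palindrome, Vip its first 7 letters, and Tac1 the 5-letter core on the opposite strand. The full palindrome occurred in 1.83% of 33469 such windows, the 7-letter form in 3.22% and the core in 21.2%. The windows of Npy, Pdyn and Adcyap1 held none of these motifs, which says only that these letters are not in those windows. The match in Sst began 3 bases into the transcript as annotated, that in Vip 97 bases before the start and that in Tac1 206 bases before it. On the arrays Sst read above background throughout, while Vip and Tac1, described further on, read below it on every array.

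Of the 9 neuropeptide genes, 5 read above background on all 4 arrays (Sst, Npy, Adcyap1, Cck and Penk), as did 55.3% of all genes. Pdyn exceeded it on 2 arrays and Vip, Tac1 and Crh on none. None of the 9 passed an adjusted p of 0.05 between PHF6 shRNA and control shRNA arrays, and none had an unadjusted p under 0.05. The smallest adjusted p among them was 0.83 (limma). The background of this comparison was 0% of all 17245 genes at the adjusted threshold and 10.8% (1862 genes) at an unadjusted p under 0.05. The median difference of the 9 genes, PHF6 shRNA minus control, was 0.11 log2 units, with 7 above 0 and 2 below, against a median of -0.0066 over all genes, of which 47.7% were above 0. Leaving out 1 array at a time, that median was 0.059 (control duplicate 1), 0.064 (control duplicate 2), 0.019 (PHF6 shRNA duplicate 1) and 0.099 (PHF6 shRNA duplicate 2).

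**Figure D1:**
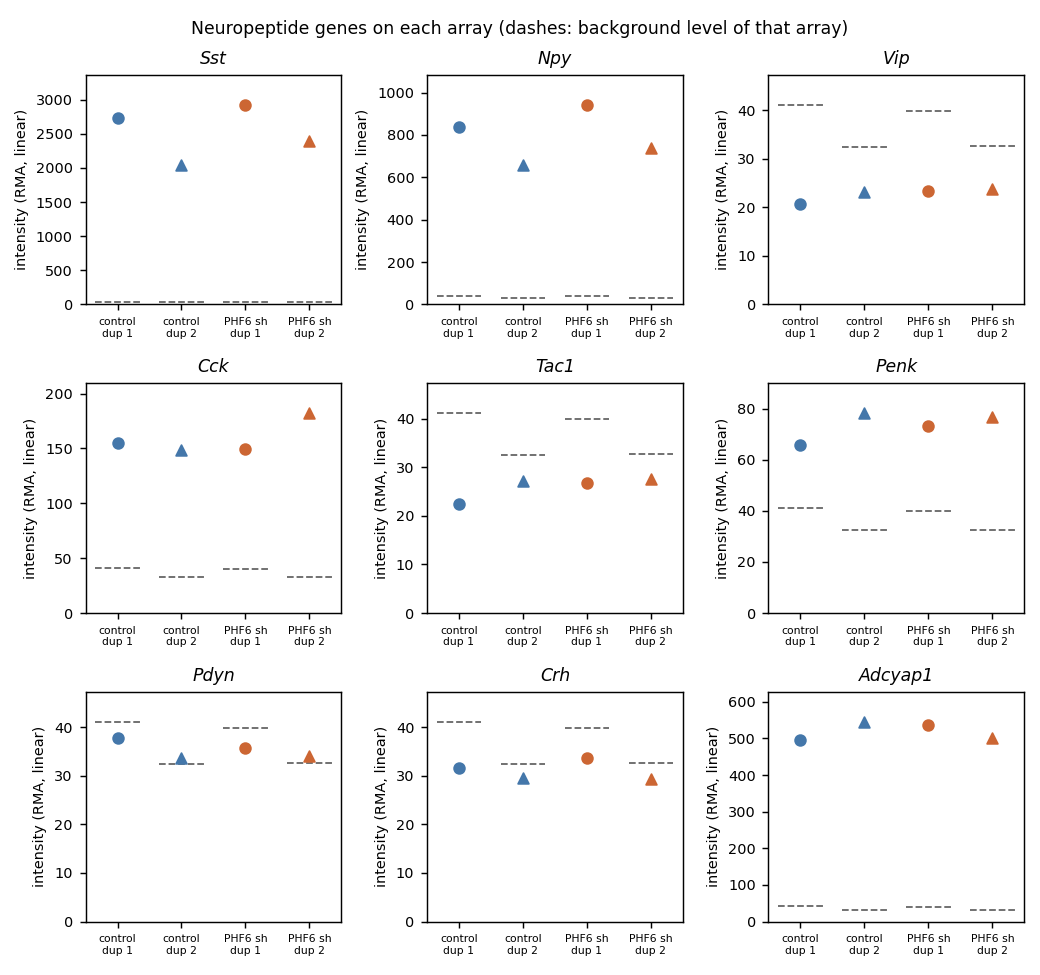
Linear intensity of each of the 9 measured neuropeptide genes (one panel each, y axes differ) on the 2 control shRNA arrays (blue) and the 2 PHF6 shRNA arrays (orange), with circles for duplicate 1, triangles for duplicate 2 and a dashed line at the background level of each array. Sst, Npy, Cck, Penk and Adcyap1 stand above the dashes on every array, while Vip, Tac1 and Crh stand below them on every array.

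Sst encodes somatostatin, an inhibitory peptide of dendrite-targeting interneurons. It read 2734 and 2048 intensity units in control duplicates 1 and 2, and 2927 and 2397 in PHF6 shRNA duplicates 1 and 2. The groups overlapped, and on each side the array numbered 1 was the higher. The difference was 0.16 ± 0.17 log2 units (SE, n = 2 arrays a group; limma adjusted p = 0.90), with a 95% interval from -0.27 to 0.60. Duplicate 2 was below duplicate 1 by a log2 difference of -0.42 in the control group and -0.29 in the PHF6 shRNA group, so the spread between duplicates exceeded the difference between groups. Without control duplicate 2 the difference was -0.046, and without control duplicate 1 it was 0.37.

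Npy encodes neuropeptide Y, which many Sst interneurons also make. It read 835 and 658 in control duplicates 1 and 2, and 944 and 738 in PHF6 shRNA duplicates 1 and 2. The order of the arrays matched that of Sst, with both arrays numbered 1 above both numbered 2, and the groups again overlapped. The difference was 0.17 ± 0.17 log2 units (SE; limma adjusted p = 0.89), with a 95% interval from -0.25 to 0.60. Leaving out control duplicate 2 gave -0.000905, and leaving out PHF6 shRNA duplicate 1 gave -0.0057. The standard deviation within groups, pooled over both groups, was 0.25 log2 units for Sst and for Npy, larger than that of 93.4% and 92.9% of all genes.

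Within each duplicate number the PHF6 shRNA array read above the control array for both genes. The log2 differences were 0.10 and 0.23 for Sst in numbers 1 and 2, and 0.18 and 0.17 for Npy. No label states that equal numbers belong together. Such an order, PHF6 shRNA above control at both numbers, held for 4 of the 9 neuropeptide genes (Sst, Npy, Vip and Tac1, the last 2 of them below background) and for 27.8% of all genes.

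Adcyap1 encodes PACAP, a peptide that raises cyclic AMP through its receptor Adcyap1r1. It read 496 and 546 under control shRNA and 537 and 500 under PHF6 shRNA, and the PHF6 shRNA values lay inside the control range. The difference was -0.0059 ± 0.095 log2 units (SE; limma adjusted p = 1.00), or 0.061 after a further quantile normalization and 0.078 after cyclic loess. Leaving out control duplicate 2 gave 0.064 and leaving out PHF6 shRNA duplicate 2 gave 0.0455. The 95% interval from -0.25 to 0.23 was the narrowest of the 5 genes above background.

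Cck encodes cholecystokinin, found in a class of basket cells and in many pyramidal neurons. It read 155 and 149 under control shRNA and 150 and 182 under PHF6 shRNA. PHF6 shRNA duplicate 2 stood above the other 3 arrays, which lay close together. The difference was 0.12 ± 0.12 log2 units (SE; limma adjusted p = 0.89; 95% interval -0.18 to 0.42), and -0.023 without that array.

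Penk encodes the precursor of the enkephalins, opioid peptides that act on delta and mu receptors. It read 65.6 and 78.3 under control shRNA and 73.4 and 76.8 under PHF6 shRNA. Both PHF6 shRNA values lay between the control values, and Penk no longer exceeded background on all arrays when the 99th percentile of the receptor genes was used. The difference was 0.067 ± 0.11 log2 units (SE; limma adjusted p = 0.96), and -0.061 without control duplicate 1.

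The other 4 genes read at or below background, where an array cannot give an exact fold, and a low signal does not show that a gene is silent. Pdyn, the precursor of the dynorphins that act on the kappa opioid receptor, read 37.8 and 33.6 under control shRNA and 35.8 and 34.1 under PHF6 shRNA. Crh, corticotropin-releasing hormone, read 31.7 and 29.5 against 33.6 and 29.3. Pdyn exceeded background only in the 2 arrays numbered 2, where that level was lower.

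Tac1, the precursor of substance P and neurokinin A, read 22.4 and 27.1 under control shRNA and 26.7 and 27.5 under PHF6 shRNA. Vip, vasoactive intestinal peptide, read 20.6 and 23.1 against 23.4 and 23.8. Vip was the only one of the 9 genes whose groups did not overlap, 1 of 9 toward higher signal, where 16% of all genes did so, and it was below background on all arrays. The log2 differences of these 4 genes were -0.028 ± 0.097 (Pdyn), 0.036 ± 0.10 (Crh), 0.14 ± 0.12 (Tac1) and 0.11 ± 0.094 (Vip), each with limma's SE. The sign turned when an array was left out for Pdyn, Crh and Tac1 and did not for Vip.

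The 95% intervals of all 9 genes lay inside a 2-fold difference in either direction. Among the 5 genes above background, the intervals of 3 (Cck, Penk and Adcyap1) also lay inside 1.5-fold, while those of Sst and Npy reached just past it on the higher side. The processing compresses differences of dim genes, so the intervals of Vip, Tac1, Crh and Pdyn cannot be read in this way.

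**Figure D2:**
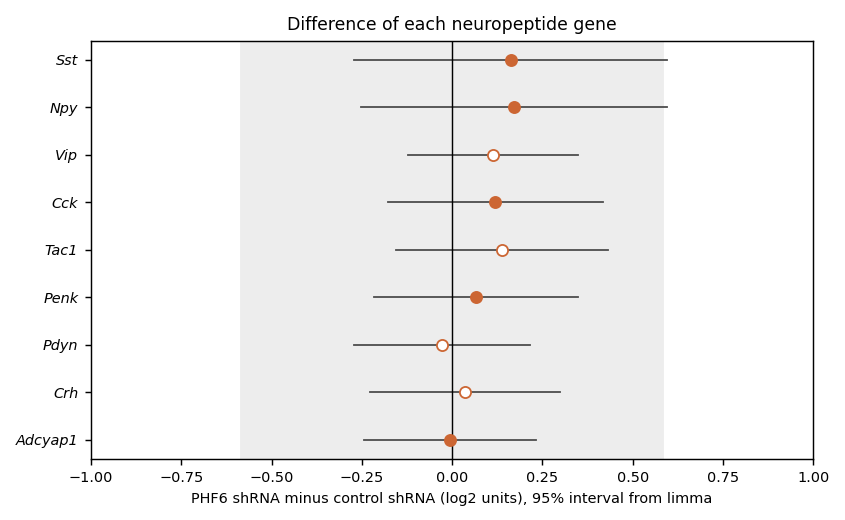
Difference of each neuropeptide gene between PHF6 shRNA and control shRNA arrays in log2 units (points) with the 95% interval from limma (lines, n = 2 arrays a group). Filled points are genes above background on all 4 arrays, open points are the others, and the grey band marks 1.5-fold in either direction. Every interval includes 0.

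Several genes of GABAergic and glutamatergic neurons differed between the duplicates as Sst and Npy did. Neither the interneuron markers nor the excitatory neuron markers went one way as a list. Of 24 interneuron markers measured, 9 were lower and 8 higher in duplicate 2 of both groups. Of 11 excitatory neuron markers 5 were lower and 4 higher. Gad1, which makes GABA, read 253 and 193 in control duplicates 1 and 2, and 277 and 221 in PHF6 shRNA duplicates 1 and 2. Gad2, the other GABA-synthesising enzyme, read 332 and 254 against 315 and 260. The vesicular GABA transporter gene Slc32a1 read 83.9 and 68.5 against 82.0 and 71.3. Like Sst and Npy, each was lower in duplicate 2 of both groups, as was Lhx6, a transcription factor of the interneuron lineage that gives rise to Sst cells, by log2 differences of -0.62 (control) and -0.45 (PHF6 shRNA). The excitatory gene Slc17a7, which encodes the vesicular glutamate transporter VGLUT1, was lower too, by -0.49 and -0.42, while the interneuron transcription factor gene Nr2f2 was higher, by 0.67 and 0.31. Over all 17245 genes 33.5% (5772 genes) were lower in duplicate 2 of both groups and 5575 genes were higher. Of the 9 neuropeptide genes 4 were lower (Sst, Npy, Pdyn and Crh) and 3 higher (Vip, Tac1 and Penk). Pdyn and Crh read at or below background, a level that was itself lower in the duplicates numbered 2.

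Between the groups these interneuron genes differed by 0.16 ± 0.17 (Gad1), -0.021 ± 0.16 (Gad2), 0.012 ± 0.13 (Slc32a1) and 0.10 ± 0.25 (Lhx6) log2 units, none with an adjusted p under 0.90, and Gad2 was at 0.050 after quantile normalization and 0.069 after cyclic loess. Of the 24 interneuron markers 18 had differences above 0, with a median of 0.057, and their summed intensity was 2833 to 2947 under control shRNA and 2851 to 2991 under PHF6 shRNA. The interneuron genes Dlx6 and Dlx5 had differences of 0.25 ± 0.089 and 0.33 ± 0.13, Dlx5 being below background on both control arrays, while Erbb4 and Kit had -0.38 ± 0.12 and -0.21 ± 0.081. No interneuron marker passed the adjusted threshold (smallest limma adjusted p = 0.39). In bulk RNA, fewer cells of a type and less RNA per cell cannot be told apart.

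Astrocyte markers differed between the duplicates in the other direction. All 8 measured were higher in duplicate 2 of both groups, against 5575 of all 17245 genes. Their summed intensity was 910 and 2074 in control duplicates 1 and 2, and 1262 and 2419 in PHF6 shRNA duplicates 1 and 2. All 8 had group differences above 0 over the 4 arrays, with a median of 0.15, but 6 of the 8 turned sign when an array was left out. Their median was then -0.19 (control duplicate 1), 0.60 (control duplicate 2), 0.69 (PHF6 shRNA duplicate 1) and -0.18 (PHF6 shRNA duplicate 2). The list was led by the glutamate transporter gene Slc1a2 at 0.98 ± 0.20 and Aldoc at 0.61 ± 0.18, neither past the adjusted threshold (0.24 and 0.35). Excitatory neuron markers, all 11 above background on every array, summed to 3874 to 4097 in control and 4039 to 4420 in PHF6 shRNA arrays, with Slc17a6 at -0.69 ± 0.11 and Emx1 at 0.34 ± 0.096. Progenitor markers summed to 414 to 631 against 352 to 703, with all 6 higher in duplicate 2 of both groups. Microglial markers, 8 of 9 lower in duplicate 2 of both groups, summed to 250 to 282 against 256 to 276, oligodendrocyte markers to 347 to 430 against 328 to 420, and vascular and fibroblast markers to 336 to 354 against 351 to 364. Of these 3 lists 2 of 9, 2 of 8 and 2 of 9 genes were above background on all arrays, and the microglial genes Aif1, Csf1r, P2ry12 and Itgam and the endothelial genes Cldn5 and Tek were above it on none. In all, 6 of the 9 microglial genes were above it on none, and the background level itself was lower in duplicate 2 of both groups. The part of cell makeup in the levels of Sst and Npy was not tested.

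**Figure D3:**
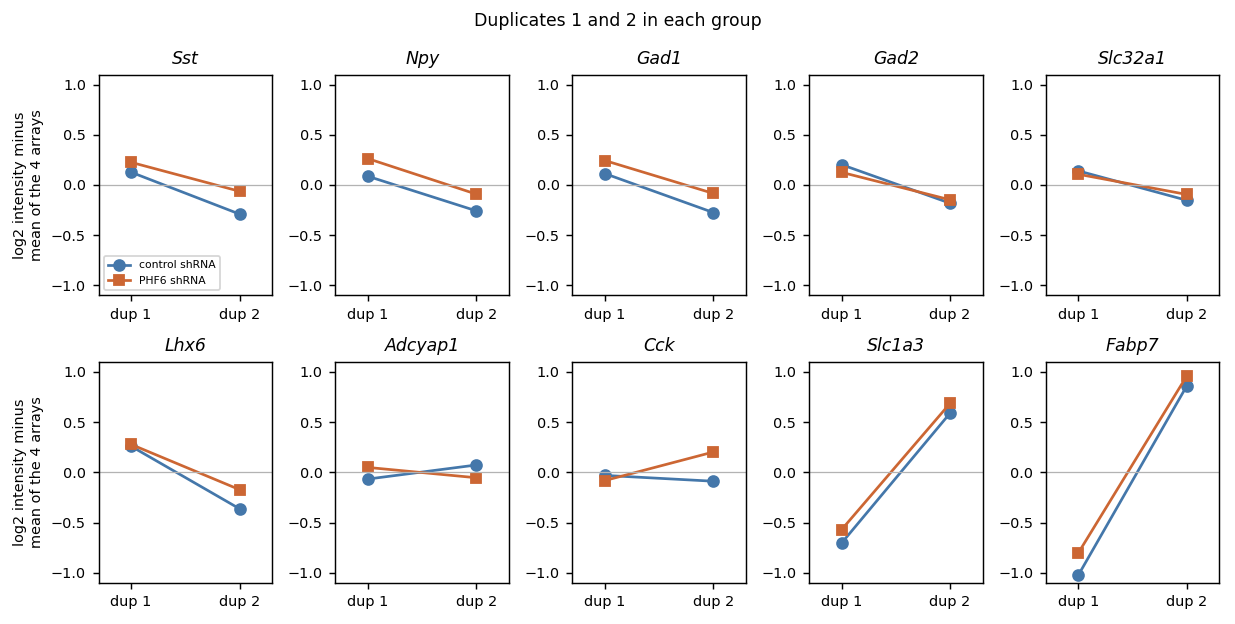
Log2 intensity minus the mean of the 4 arrays for 10 genes, with lines joining duplicates 1 and 2 of the control shRNA group (blue circles) and of the PHF6 shRNA group (orange squares). Sst, Npy, Gad1, Gad2, Slc32a1 and Lhx6 are lower in duplicate 2 of both groups, the astroglial genes Slc1a3 and Fabp7 are higher there, and Adcyap1 and Cck have slopes of opposite sign in the groups. Gad1, Gad2, Slc32a1 and Lhx6 were chosen after their values were seen and do not stand for their list. Of 24 interneuron markers measured, 9 were lower and 8 higher in duplicate 2 of both groups.

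Receptors for these peptides, with the Crh-binding protein gene Crhbp, were measured for 20 of 26 listed genes, 10 of them above background on all arrays. The median difference was 0.044 log2 units, with 15 above 0 and 5 below, and none passed in either direction (smallest limma adjusted p = 0.24). Groups did not overlap for 5 toward higher and 1 toward lower signal, against 16% and 21.7% of all genes. Of these 5, Npy5r, Oprm1 and Vipr2 read below background on all arrays, Cckbr exceeded it on 3, and Sstr2 on all 4. Sstr2, a receptor gene for somatostatin, read 194 and 233 under control shRNA and 304 and 307 under PHF6 shRNA, a difference of 0.53 ± 0.11 (SE; limma unadjusted p = 0.0046). Both PHF6 shRNA arrays were above both control arrays, and leaving out each array in turn gave 0.39 to 0.66. The other somatostatin receptor genes above background on all 4 arrays had overlapping groups, at 0.034 (Sstr1), 0.017 (Sstr4) and 0.054 (Sstr5).

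Cckbr, the main cholecystokinin receptor of the brain, read 36.2 and 32.6 under control shRNA and 59.2 and 40.3 under PHF6 shRNA. Control duplicate 1 was below its background level and control duplicate 2 barely above, so the difference of 0.51 ± 0.19, or 0.23 to 0.78 with 1 array left out, is not exact (limma adjusted p = 0.43). Adcyap1r1, the PACAP receptor gene, read 176 and 185 against 140 and 156, a difference of -0.29 ± 0.096 (limma adjusted p = 0.39), while its ligand gene Adcyap1 was at -0.0059. Npy5r, a neuropeptide Y receptor gene, was below background on all arrays, with a difference of 0.14 ± 0.090. The opioid receptor genes Oprm1 and Oprk1, the substance P receptor gene Tacr1 and the VIP receptor gene Vipr2 also read below background on all arrays. In contrast, the delta opioid receptor gene Oprd1 and the neuropeptide Y receptor genes Npy1r and Npy2r read above it on all 4. Their differences were 0.027 (Oprd1), 0.18 (Npy1r) and 0.17 (Npy2r), each with overlapping groups.

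Precursor processing was represented by convertases, the carboxypeptidase Cpd, the amidating enzyme Pam and their helpers, 11 of 13 measured. Their median difference was -0.082, with 5 above 0 and 6 below, and none passed (smallest limma adjusted p = 0.54). Pcsk2, the neuronal prohormone convertase that cuts many of these precursors, read 586 and 478 under control shRNA and 555 and 427 under PHF6 shRNA, so it too was lower in duplicate 2 of both groups. The smallest p-values belonged to the convertase gene Pcsk7 at -0.19 ± 0.089, Cpd at 0.20 ± 0.11, the convertase gene Pcsk5 at -0.19 ± 0.13 and Pcsk4, above background on 1 array, at 0.11 ± 0.10. Leaving out 1 array moved Pcsk5 between -0.35 and -0.030, Cpd between 0.078 and 0.33 and Pcsk4 between 0.018 and 0.20, and turned the median of the list to 0.026 (PHF6 shRNA duplicate 1) or 0.042 (PHF6 shRNA duplicate 2). The groups did not overlap for 2 of 11 genes toward higher signal and 1 toward lower (16% and 21.7% of all genes).

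Dense-core granule genes, the cargo and release proteins of peptide vesicles, were measured for 19 of 20 listed, 16 of them above background on all arrays. Their median was -0.029, with 9 above 0 and 10 below, and none passed (smallest limma adjusted p = 0.28). The vesicle-priming genes Cadps and Cadps2, which act in dense-core vesicle release, were both at lower signal. Cadps read 608 and 622 under control shRNA against 492 and 494 under PHF6 shRNA, a difference of -0.32 ± 0.080. Cadps2 read 201 and 226 against 164 and 175, a difference of -0.34 ± 0.099. In both genes the groups did not overlap, as in 4 of the 19 genes toward lower and 5 toward higher signal (21.7% and 16% of all genes). Hid1, which acts in dense-core vesicle formation, was at 0.30 ± 0.086 and Ica1 at -0.29 ± 0.089. The granins Chga, Chgb, Scg2 and Scg3 were at -0.10, 0.26, 0.10 and -0.12.

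Peptidases that can degrade neuropeptides were all measured, 13 of 13, with a median of -0.024, 4 above 0 and 9 below. None passed (smallest limma adjusted p = 0.24), and groups did not overlap for 2 toward higher and 5 toward lower signal (16% and 21.7% of all genes). Prep, prolyl endopeptidase, read 397 and 425 under control shRNA and 310 and 313 under PHF6 shRNA, a difference of -0.40 ± 0.085 (limma unadjusted p = 0.0044). Nln, neurolysin, was at -0.36 ± 0.11, the puromycin-sensitive aminopeptidase gene Npepps at -0.19 ± 0.090 and Ece2, an endothelin-converting enzyme gene, at 0.15 ± 0.081. Neprilysin, encoded by Mme, read below background on every array.

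**Figure D4:**
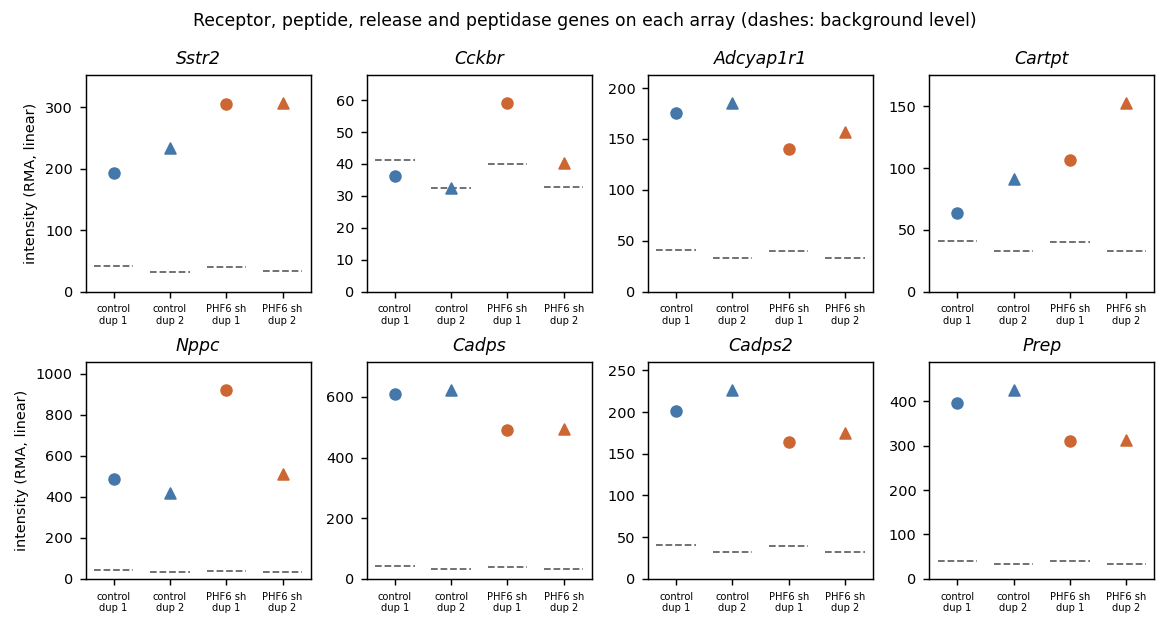
Linear intensity of 8 genes of neuropeptide reception, supply, release and degradation (y axes differ) on the control shRNA (blue) and PHF6 shRNA (orange) arrays, with circles for duplicate 1, triangles for duplicate 2 and dashes at each array's background level. The 8 genes were chosen among those of smallest p in their lists, which favours groups that do not overlap. In each panel both PHF6 shRNA arrays lie on one side of both control arrays, as in 37.8% of all genes. With no block for the duplicate number, none of the 8 genes passed the adjusted threshold.

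Other neuropeptide and peptide hormone genes were measured for 44 of 50 listed. On all arrays 14 exceeded background and on none 22 did. Their median difference was 0.037, with 31 above 0 and 13 below, and -0.0032 without control duplicate 2. None passed (smallest limma adjusted p = 0.36). Cartpt, the precursor of CART peptide, read 63.6 and 91.0 under control shRNA and 107 and 153 under PHF6 shRNA, a difference of 0.75 ± 0.24. Unlike Sst and Npy it was higher in duplicate 2 of both groups. Nppc, C-type natriuretic peptide, read 487 and 418 against 921 and 510, a difference of 0.60 ± 0.28, and PHF6 shRNA duplicate 1 stood far above the other arrays.

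Ucn, urocortin, a relative of Crh, read 49.6 and 42.2 under control shRNA and 101 and 47.0 under PHF6 shRNA, a difference of 0.59 ± 0.35 with overlapping groups. Without PHF6 shRNA duplicate 2, which leaves 1 PHF6 shRNA array, the differences of Nppc and Ucn were 1.03 and 1.14. Without PHF6 shRNA duplicate 1 they were 0.18 and 0.040. Calcb, a calcitonin gene-related peptide gene above background on 1 array, was at 0.14 ± 0.096.

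The list of regulators of CREB-dependent transcription, which also holds the repressor gene Rest, was measured in full, 10 of 10. On all arrays 9 were above background, and Rest was above it on 2. The median was -0.024, with 5 above 0 and 5 below, and none passed (smallest limma adjusted p = 0.48). Crtc1, a CREB coactivator, read 443 and 452 under control shRNA and 289 and 401 under PHF6 shRNA, a difference of -0.39 ± 0.16, or -0.63 to -0.16 with 1 array left out. The coactivator gene Crebbp was at -0.26 ± 0.11, Creb1 itself at -0.22 ± 0.098 and Atf2, a relative, at 0.16 ± 0.080. Groups did not overlap for 4 of the 10 genes toward lower and 1 toward higher signal (21.7% and 16% of all genes), these 4, named for the smallest p, among them. The genes with a cyclic AMP response element shown above, whole or in part, had differences of 0.16 (Sst), 0.11 (Vip) and 0.14 (Tac1), the latter 2 from signals below background. Npy, Pdyn and Adcyap1, whose windows held none of the motifs, were at 0.17, -0.028 and -0.0059. A link between the element and the differences was not tested.

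**Figure D5:**
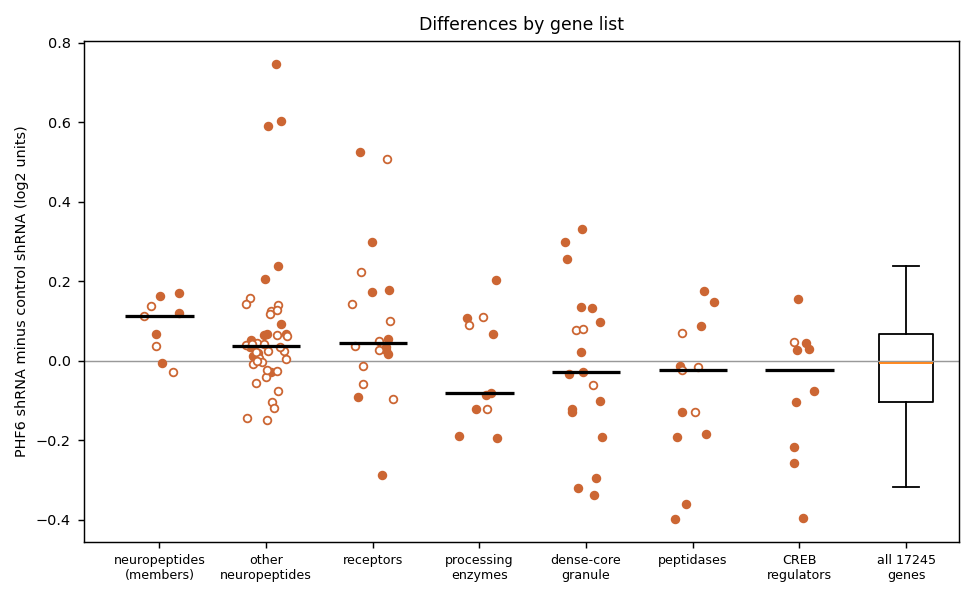
Difference between PHF6 shRNA and control shRNA arrays in log2 units for each measured gene of 7 lists, with filled points for genes above background on all 4 arrays, open points for the others and a black line at each list's median. The box shows the quartiles and median of all 17245 genes, with whiskers at the 5th and 95th percentiles. The neuropeptide median lies at 0.11 and those of the other lists between -0.082 and 0.044.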

How the data were processed

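Per the labels' protocols, biotin-labelled sense target from total RNA of each of the 4 samples was run on an Affymetrix whole-transcript array (1 colour). The deposited values are probe set intensities that the authors made with RMA, per the submitters' processing notes, whose version is not given in the sources used here. The method corrects background, normalizes between arrays by quantiles and compresses differences of dim probe sets. Because these intensities span 8.57 to 6121 and are therefore linear, they were converted to log2.

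Of 29214 rows, 18644 carry 1 gene symbol, 962 several and 9608 none in the platform annotation. Symbols were updated through the gene identifier to RefSeq (GRCr8) for 18460 rows and kept as annotated for 184. The probe set with the highest mean was used for each of 17245 genes. Groups came from the sample titles, and the test was limma 3.58.1 under R 4.3.3 (lmFit, eBayes, 2-sided, no filter, no covariate, Benjamini-Hochberg over all genes, threshold 0.05, prior degrees of freedom 3.46). The fit was tested on simulated data whose shifts were far larger than the differences of the members. The simulated arrays varied independently, so that test does not gauge the power for small differences here. Signal near or below background on an array limits precision, as does the number of arrays. Besides the members, the rule named up to 4 genes per list, those of smallest p, and the receptor of highest mean, which was among them. Added after their values were seen were Gad1, Gad2, Slc32a1, Lhx6, Slc17a7, Nr2f2, Slc1a3, Fabp7, Pcsk2 and the granins. So were the further receptor genes above background and the genes listed as below it. Some of these added genes are shown because they differed between the duplicates as Sst and Npy did. No correlation with a member was computed, since 4 arrays are too few for it. The members and lists were chosen with earlier results of these data known.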

Additional observations from a re-analysis of the deposited data

How the results depend on the processing

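None of 12 alternative settings brought a neuropeptide gene past the adjusted threshold; the filter on dim genes tested 6 of the 9, leaving out Vip, Tac1 and Crh. The labels give both groups duplicate numbers 1 and 2 without saying that they pair the arrays; deviations of same-numbered arrays from their group means correlated at 0.57 across genes, which are not independent. With the duplicate number as a replicate block 909 genes passed, none of the 9 among them, and the block brought Sstr2, Cckbr, Cartpt, Nppc, Slc1a2 and Aldoc (higher) and Prep and Slc17a6 (lower) past the threshold. Leaving out each array in turn gave 0 to 90 genes past it (2 without PHF6 shRNA duplicate 1, 90 without PHF6 shRNA duplicate 2), and in these fits the lone array is assumed to vary like the other group. The range of log2 differences over the 4 fits was -0.046 to 0.37 for Sst, -0.0057 to 0.35 for Npy, -0.023 to 0.26 for Cck, -0.076 to 0.064 for Adcyap1, -0.061 to 0.19 for Penk, -0.11 to 0.059 for Pdyn, -0.063 to 0.14 for Crh, -0.0011 to 0.28 for Tac1 and 0.032 to 0.19 for Vip. It was -0.034 to 0.35 for Gad1, -0.21 to 0.17 for Gad2, -0.13 to 0.16 for Slc32a1 and -0.21 to 0.42 for Lhx6. A further quantile normalization turned Adcyap1 to 0.061 and Gad2 to 0.050, and cyclic loess turned them to 0.078 and 0.069. Genes that kept their sign moved too. In that order of settings, Cadps went from -0.32 to -0.25 and -0.24, and Prep from -0.40 to -0.32 and -0.31. Sstr2 went from 0.53 to 0.59 and 0.62, while Vip, below background, went from 0.11 to 0.10 and 0.099. The cause was not tested. With the 99th percentile of the receptor genes as background, 4 of the 9 genes exceeded it on all arrays, in place of 5.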
